A study of Homo sapiens with 90 samples.

Results

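A set of 10 genes that report on the ERK pathway was followed in A673 cells, a human Ewing sarcoma line, across 3 agricultural chemicals. They were the transcription factors ETV4 and ETV5, the phosphatases DUSP4, DUSP5 and DUSP6, the pathway inhibitors SPRY2, SPRY4, SPRED1 and SPRED2, and PHLDA1. Every probe set that the array annotation gives to exactly 1 of these 10 symbols was taken, which made 28 of the 54613 probe sets tested and 10 of the 19774 genes with a probe set of their own. The list was drawn up with earlier results of these data at 10 µM in view, so the values at 10 µM are a description and carry no test.

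Exposure lasted 24 h, to fenbuconazole, a triazole fungicide, to imazalil, an imidazole fungicide, or to 2,4-dichlorophenoxyacetic acid (2,4-D), a chlorophenoxy herbicide. Each chemical was given at 9 concentrations spaced about 3-fold from 0.001 to 10 µM, with 3 arrays a concentration, and every culture, vehicle controls included, held 0.2% DMSO. Each chemical's 27 treated columns were normalized with 3 DMSO columns as a set of 30, so a level in 1 set has no meaning beside a level in another. By the labels the vehicle arrays served all 3 chemicals. With each probe set centred, a DMSO column of the imazalil set and its 2,4-D counterpart of the same number had a correlation of 0.867 to 0.878, whereas the fenbuconazole columns reached only 0.105 to 0.198 with either. The former were therefore counted once and the latter separately, for 87 distinct arrays among the 90 columns. Per the methods of the study, its 3 biological replicates were separate experiments, each on its own batch of cells, although the sources do not say which arrays shared a batch. The p-values measure the spread between these arrays. Since the RNA is from bulk cultures, fewer cells with a transcript and less transcript in each cell cannot be told apart.

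ERK is the last kinase of the RAS, RAF and MEK relay that carries growth factor signals into the nucleus. Active ERK switches on transcription factor genes such as ETV4 and ETV5 and, in the same wave, the brakes that restrain it: the dual-specificity phosphatases, which remove phosphate from ERK and related kinases, and the Sprouty and SPRED proteins, which act near RAS and RAF. PHLDA1, which encodes a pleckstrin homology-like domain protein, is another target, and the levels of such transcripts are widely read as a measure of pathway output.

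All 7 measured markers of Ewing sarcoma, among them CD99, NKX2-2 and STEAP1, lay above the array median in every set, between percentiles 80.9 and 99.7 of the probe sets. Of the markers of other cell types, 1 of 5 hepatocyte genes, 4 of 6 breast epithelium genes and 0 of 3 leukocyte genes did so, with the leukocyte genes between percentiles 5.70 and 47.2. Array medians ran from 2.76 to 2.83 in the fenbuconazole set, from 3.34 to 3.39 in the imazalil set and from 3.40 to 3.46 in the 2,4-D set, on the log2 scale.

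The genes lie apart in the genome (GRCh38.p14, RefSeq gene bounds), except that DUSP6 and PHLDA1 share a chromosome. The position of DUSP4 is not reported here. ETV4 is at chr17:43527846-43546340 and ETV5 at chr3:186046314-186109089. DUSP5 is at chr10:110497907-110511533, DUSP6 at chr12:89347235-89352501 and PHLDA1 at chr12:76025447-76031776. SPRY2 is at chr13:80335976-80341126, SPRY4 at chr5:142310430-142325021, SPRED1 at chr15:38252836-38357249 and SPRED2 at chr2:65307175-65432599.

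The promoters of 4 genes whose levels moved together from array to array, with pairwise correlations from 0.46 to 0.66, are shown as the 250 bases before the annotated start of the gene, from RefSeq on GRCh38.p14. Capitals mark CCGGAA, the core of sites for ETS factors such as ETV4 and ETV5, TGANTCA, the site of AP-1, and TGACG, a half-site of cAMP-responsive elements, each searched on both strands.
DUSP6, chr12:89352502-89352751, minus strand: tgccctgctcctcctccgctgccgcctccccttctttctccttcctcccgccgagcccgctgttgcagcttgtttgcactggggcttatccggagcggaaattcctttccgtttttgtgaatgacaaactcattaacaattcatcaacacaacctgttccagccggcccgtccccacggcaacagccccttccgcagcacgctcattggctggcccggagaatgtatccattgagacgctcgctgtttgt
SPRED1, chr15:38252586-38252835, plus strand: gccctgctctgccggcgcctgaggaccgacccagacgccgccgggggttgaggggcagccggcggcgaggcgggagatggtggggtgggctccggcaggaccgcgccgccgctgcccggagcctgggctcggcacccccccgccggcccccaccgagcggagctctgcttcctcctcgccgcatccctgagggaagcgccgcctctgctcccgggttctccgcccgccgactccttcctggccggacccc
SPRY2, chr13:80341127-80341376, minus strand: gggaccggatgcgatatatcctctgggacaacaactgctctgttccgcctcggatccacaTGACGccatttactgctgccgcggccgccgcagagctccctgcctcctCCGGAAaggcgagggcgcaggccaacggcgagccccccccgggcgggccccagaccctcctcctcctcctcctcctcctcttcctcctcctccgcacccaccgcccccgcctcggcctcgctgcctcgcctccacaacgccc
PHLDA1, chr12:76031777-76032026, minus strand: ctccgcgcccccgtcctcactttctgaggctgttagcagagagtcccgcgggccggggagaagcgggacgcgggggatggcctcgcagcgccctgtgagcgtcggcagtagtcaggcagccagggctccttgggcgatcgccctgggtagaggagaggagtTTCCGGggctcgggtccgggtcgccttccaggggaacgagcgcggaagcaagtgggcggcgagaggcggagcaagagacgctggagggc
CCGGAA stood 142 bases before the start of SPRY2 and, on the opposite strand, 89 bases before that of PHLDA1. TGACG stood 190 bases before the start of SPRY2. The windows of DUSP6 and SPRED1 held none of these letters, and neither did that of SPRED2, the fifth member found with an entry at its annotated start. DUSP4 was not looked up. Of all 35116 promoter windows of this length, 14.5% held CCGGAA, 6.57% held TGANTCA and 21.2% held TGACG. A match in a window is a description of the sequence, not a site.

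Where a gene had several probe sets, its level is that of the brightest on average over the 90 columns, called the representative here. The representatives were 1554576_PM_a_at for ETV4, 203349_PM_s_at for ETV5, 204015_PM_s_at for DUSP4, 209457_PM_at for DUSP5, 208892_PM_s_at for DUSP6, 204011_PM_at for SPRY2, 221489_PM_s_at for SPRY4, 226837_PM_at for SPRED1, 212458_PM_at for SPRED2 and 217996_PM_at for PHLDA1. PHLDA1 had 6 probe sets, ETV5 had 4, DUSP4, DUSP6, SPRED1 and SPRED2 had 3 each, ETV4 and SPRY4 had 2 each, and DUSP5 and SPRY2 had 1 each.

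Below 10 µM, no concentration of any of the 3 chemicals moved a member past the threshold. Over the 24 contrasts of a single concentration below 10 µM against the DMSO arrays of its set, 0 of 28 probe sets passed in any contrast (limma, Benjamini-Hochberg adjusted p under 0.05 over all probe sets), where 7.63e-05% of the tests over all probe sets did (0% in 23 contrasts and 0.00183% in that of 0.003 µM fenbuconazole). At an unadjusted p under 0.05 there were 28 of 672 tests of member probe sets, or 4.17%, against 5.13% over all probe sets. For the 10 genes, the log2 differences from DMSO ran from -0.33 to 0.48 with fenbuconazole, from -0.22 to 0.24 with imazalil and from -0.31 to 0.22 with 2,4-D. The largest of these, SPRED1 at 0.3 µM fenbuconazole (0.48, SE 0.20, adjusted p = 0.602), was set against DMSO arrays at 6.19, 5.47 and 6.57. One of those DMSO arrays thus stood lower than each of the 18 SPRED1 values at 0.001 to 0.3 µM, which ran from 5.62 to 6.73 with a median of 6.42.

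Because 3 DMSO arrays make a narrow base, each chemical at 1 and 3 µM was also set against its own 18 arrays at 0.001 to 0.3 µM, called the low concentrations here. Again 0 of 28 probe sets passed in any of the 6 contrasts (limma), where 0% of all probe sets did, with 10 of 168 tests, or 5.95%, at an unadjusted p under 0.05 against 3.72% over all probe sets. By set these were 5 of 56 tests with fenbuconazole, 3 with imazalil and 2 with 2,4-D. Over all 54613 probe sets there were 1925 and 2184 at 1 and 3 µM fenbuconazole, 2619 and 2233 with imazalil, and 1587 and 1638 with 2,4-D. With imazalil, DUSP4 was 7.16, 7.23 and 7.10 at 1 µM, of which the first 2 lay above the range of its low concentrations (6.80 to 7.13, median 6.98), a difference of 0.19 (SE 0.07, adjusted p = 0.955). With fenbuconazole, PHLDA1 was 5.38, 6.26 and 6.06 at 1 µM, where the low concentrations ran from 5.80 to 6.53 with a median of 6.24. Its difference of -0.32 (SE 0.13, adjusted p = 1.00) rested mostly on the first of the 3 arrays. The 95% intervals of the 10 genes at 1 and 3 µM ran from -0.58 to 0.53 with fenbuconazole, from -0.33 to 0.34 with imazalil and from -0.35 to 0.35 with 2,4-D.

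Along the concentrations from 0.001 to 3 µM, 0 of 28 probe sets had a slope past the threshold in any set (limma, 0% of all probe sets). Of 84 tests, 4, or 4.76%, were at an unadjusted p under 0.05, against 3.81% over all probe sets. By set these were 3 of 28 with fenbuconazole, 1 with imazalil and 0 with 2,4-D. Over all 54613 probe sets there were, in the same order, 2260, 2335 and 1643. The slopes of the 10 genes lay between -0.04 and 0.07 log2 units per 10-fold of fenbuconazole, between -0.03 and 0.03 for imazalil and between -0.00 and 0.04 for 2,4-D. The steepest was that of ETV4 with fenbuconazole, at 0.07 (SE 0.04, adjusted p = 1.00), and it ran upward.

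**Figure D1:**
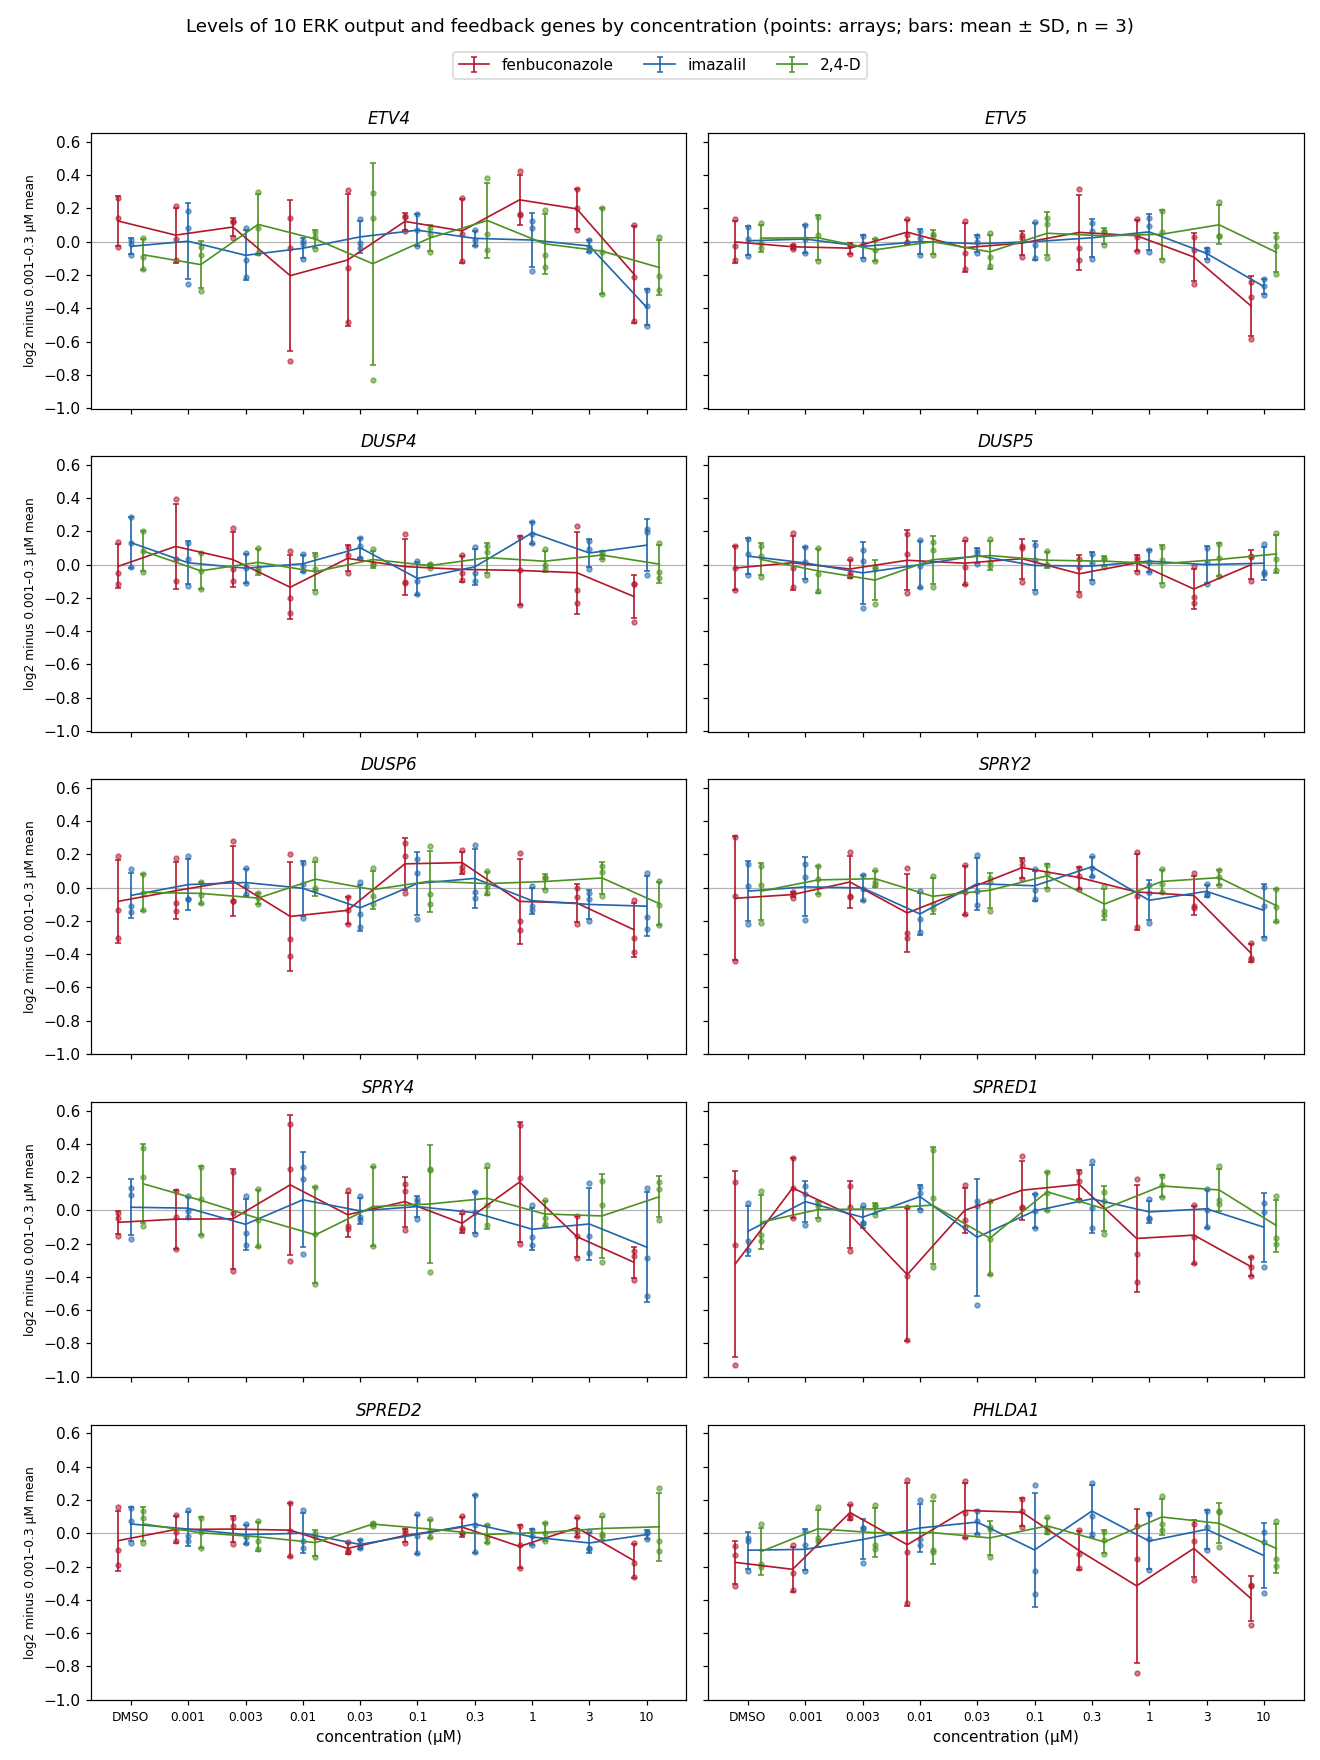
Log2 level of each of the 10 genes, as the difference from the mean of the 18 low-concentration arrays of the same set (vertical axis), by concentration in µM with DMSO at the left (horizontal axis, ordered groups). Points are single arrays, bars are mean ± SD of 3 arrays, and colours are the 3 chemicals. Up to 3 µM the means lie on both sides of 0, and single arrays of ETV4, SPRED1 and PHLDA1 lie far below it. At 10 µM the fenbuconazole differences of ETV5, SPRY2 and PHLDA1 are -0.39, -0.40 and -0.39.

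At 10 µM fenbuconazole all 10 genes had a lower mean than at the low concentrations, with a median log2 difference of -0.28 against -0.004 over all genes. All 28 member probe sets were lower, from -0.52 to -0.00. The mean at 10 µM was the lowest of the 10 groups of the set, DMSO included, for 7 of the 10 genes, which left ETV4, DUSP5 and SPRED1 with their lowest mean elsewhere. The same held for 4 of 10 genes with imazalil and 4 of 10 with 2,4-D, and the share over all genes was not taken. None of the 28 probe sets passed the threshold (limma, 0.00366% of all probe sets did). An unadjusted p under 0.05 was seen for 15 of them, against 3227 of 54613 over all probe sets. As the list was drawn up with these arrays in view, nothing is read from these counts.

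Among the transcription factors, ETV5 had 7.81, 7.55 and 7.90 at 10 µM fenbuconazole. Its low concentrations ran from 7.98 to 8.45 with a median of 8.12, and its DMSO arrays were at 8.27, 8.11 and 8.03. The treated values lay below every one of these, a difference of -0.39 (SE 0.08) from the low concentrations and of -0.39 (SE 0.11) from DMSO. Its other 3 probe sets differed by -0.52, -0.28 and -0.25. ETV4 overlapped, with 4.45, 5.03 and 4.71 at 10 µM against a range of 4.21 to 5.23, and differed by -0.20 (SE 0.14).

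Of the Sprouty genes, whose products hold back signalling between receptor and RAF, SPRY2 had 5.24, 5.34 and 5.25 at 10 µM fenbuconazole. Its low concentrations ran from 5.37 to 5.89 with a median of 5.66, so the groups did not overlap, and the difference was -0.40 (SE 0.11). One DMSO array of SPRY2, at 5.23, stood as low as the treated ones, while the others were at 5.62 and 5.97. SPRY4 had 5.32, 5.18 and 5.35, of which 1 lay below a range of 5.23 to 6.11 and the others near its lower end, and differed by -0.31 (SE 0.13). The second probe set of SPRY4, far dimmer, differed by -0.05 (SE 0.10).

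The SPRED proteins, which carry a domain of the Sprouty family and bind neurofibromin, were represented by 2 genes. SPRED1 had 6.06, 6.01 and 6.12 at 10 µM fenbuconazole and differed from its low concentrations by -0.34 (SE 0.15), but from DMSO by -0.02. SPRED2 had 7.76, 7.96 and 7.84 against a range of 7.88 to 8.20 and differed by -0.17 (SE 0.08).

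Among the phosphatases, DUSP6, which acts on ERK in the cytoplasm, had 9.52, 9.21 and 9.29 at 10 µM fenbuconazole against a range of 9.18 to 9.87, a difference of -0.25 (SE 0.12). DUSP4, a nuclear phosphatase, had 5.88, 6.11 and 6.11 and differed by -0.19 (SE 0.11). The lowest DUSP4 value at low concentrations was 5.94, so that 1 of its 3 treated arrays lay outside the range. DUSP5, also nuclear, had 7.49, 7.63 and 7.64 within a range of 7.41 to 7.77, and differed by -0.00 (SE 0.08). PHLDA1 had 5.89, 5.90 and 5.66 against a range of 5.80 to 6.53, and differed by -0.39 (SE 0.13), with its other 5 probe sets between -0.40 and -0.24.

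By replicate number, the 10 µM array was lower than the mean of the 6 low-concentration arrays of the same number in 3 of 3 numbers for 9 of the 10 genes with fenbuconazole, against 14.8% of all genes. DUSP5 was the exception, with -0.08, 0.15 and -0.07. The 3 values at 10 µM lay below all 18 low-concentration values for 2 of the 10 genes, ETV5 and SPRY2, against 0.283% of all genes. They lay below all 3 DMSO values for ETV5 and SPRY4, against 6.15% of all genes. The median difference from DMSO over the 10 genes was -0.20, with 9 of them lower.

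At 10 µM imazalil, ETV4 and ETV5 stood lowest among the members. ETV4 had 5.54, 5.33 and 5.45, where the low concentrations ran from 5.58 to 6.02 with a median of 5.83 and the DMSO arrays were at 5.85, 5.82 and 5.76. All 3 ETV4 values lay below every reference value, a difference of -0.40 (SE 0.08), and the second ETV4 probe set differed by -0.31 (SE 0.12). ETV5 had 8.78, 8.87 and 8.83 against a range of 8.99 to 9.21 and a median of 9.10, again without overlap, a difference of -0.27 (SE 0.06). The other 3 probe sets of ETV5 lay between -0.18 and -0.15. Of these, 230102_PM_at had 0.04, -0.50 and 0.01 in replicates 1, 2 and 3, so its difference rested on replicate 2. At 3 µM the representative of ETV5 had 9.03, 9.05 and 8.99, below its low-concentration median, with the last just under the low-concentration range.

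The inhibitors and phosphatases were closer to their references with imazalil. SPRY4 had 6.03, 6.25 and 6.67, a spread wider than its difference of -0.22 (SE 0.11). SPRY2 differed by -0.14, PHLDA1 by -0.13, DUSP6 by -0.11, SPRED1 by -0.10, SPRED2 by -0.01 and DUSP5 by 0.01, with values inside or overlapping the range at low concentrations. DUSP4 was on the other side, with 7.17, 7.19 and 6.91 and a difference of 0.12 (SE 0.07). Its probe set 226034_PM_at went the other way (-0.22), as did SPRED1's 235074_PM_at (0.05) and both other probe sets of SPRED2 (0.06 and 0.10), each within 2 SE of 0. In all, 8 of 10 genes and 22 of 28 probe sets were lower, with a median of -0.12 over the genes against -0.003 over all genes. That median was -0.06 against DMSO, -0.07 without replicate 2 and -0.03 without the 10 µM array of replicate 2, and it ran from -0.18 to -0.03 when a replicate number or a 10 µM array was left out. None of the 28 passed the threshold (limma, 0.0146% of all probe sets did). An unadjusted p under 0.05 was seen for 8 of them, against 3224 of 54613 over all probe sets. With the replicate number as a block, 1 of the 28, the representative of ETV5, passed (0.0256% of all probe sets). The members were chosen with 10 µM results in view, so nothing is read from these counts either. PHLDA1's 217997_PM_at was the other probe set without overlap (-0.30, SE 0.10). ETV4 and ETV5 were lower in 3 of 3 replicate numbers, against 13.4% of all genes, and without overlap with the low concentrations, against 0.137% of all genes. They were also the 2 genes whose values lay below all DMSO values, against 3.77% of all genes.

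With 10 µM 2,4-D the members stayed close to their references. Lower means were seen for 6 of 10 genes and 18 of 28 probe sets, with a median of -0.08 over the genes against -0.001 over all genes. The median ran from -0.11 to -0.04 when a replicate number or a 10 µM array was left out, and was -0.04 without replicate 2 and -0.05 without the 10 µM array of replicate 1. None passed the threshold (limma, 0% of all probe sets did). Of the 28, 3 were at an unadjusted p under 0.05, against 3123 of 54613 over all probe sets. ETV4 had 5.87, 5.55 and 5.63 within a range of 5.01 to 6.22, and differed by -0.16 (SE 0.14). ETV5 had 9.15, 9.21 and 8.99 and differed by -0.06 (SE 0.07), though its other probe sets ranged from -0.27 to 0.06. The values of 0 genes lay below all low-concentration values, against 0.106% of all genes, or below all DMSO values, against 3.45%. ETV4 and SPRED1 were lower in 3 of 3 replicate numbers, against 11.4% of all genes. Other probe sets whose direction differed from the representative were DUSP4's 204014_PM_at (-0.22), PHLDA1's 217998_PM_at (0.11), SPRED1's 244439_PM_at (0.03) and SPRY4's 220983_PM_s_at (-0.09).

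**Figure D2:**
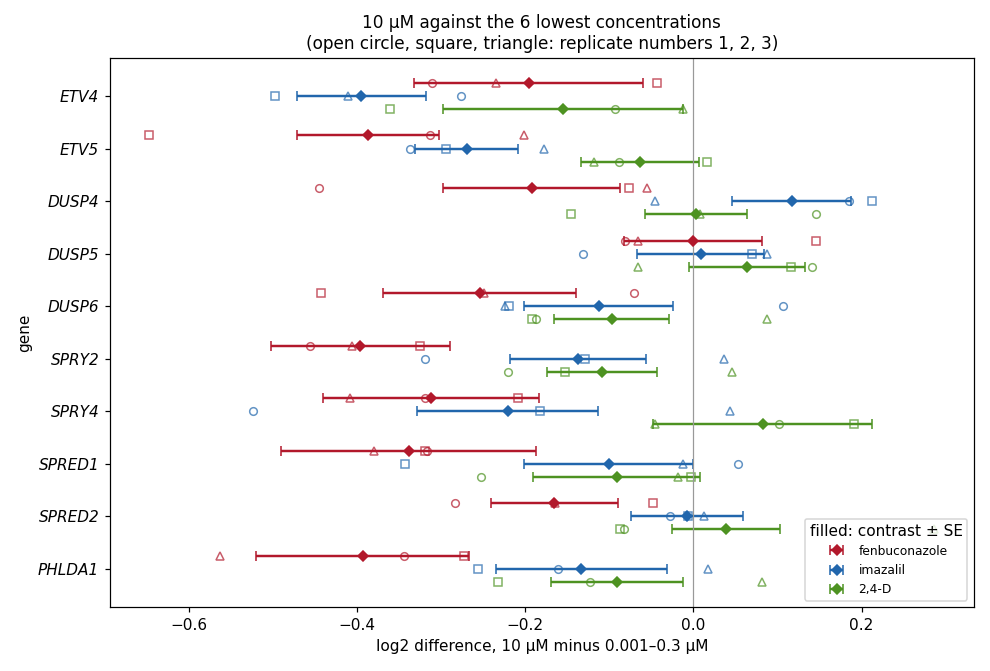
Log2 difference between 10 µM and the low concentrations of the same chemical (horizontal axis) for each gene (vertical axis). Filled diamonds with bars are the limma contrast ± SE, open symbols are the 3 replicate numbers each against the low-concentration arrays of that number, and colours are the 3 chemicals. The fenbuconazole diamonds run from -0.40 for SPRY2 to -0.00 for DUSP5, and the imazalil diamond of ETV4 at -0.40 lies left of its fenbuconazole diamond at -0.20.

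The chemicals were then set against each other at matched concentrations, each as its difference from its own low concentrations. At 1 and 3 µM, 0 of 28 probe sets differed in any of the 6 contrasts of 2 chemicals (limma over the 81 treated arrays, 0% of all probe sets), with 7 of 168 tests, or 4.17%, at an unadjusted p under 0.05 against 4.30% over all probe sets. Fenbuconazole minus 2,4-D at 1 µM gave the largest difference among the genes, -0.41 (SE 0.16, adjusted p = 1.00) for PHLDA1. The 95% intervals ran from -0.73 to 0.65 over the 60 differences. The fungicides, which both carry an azole ring, were no exception, with intervals from -0.58 to 0.65 at 1 µM and from -0.48 to 0.60 at 3 µM.

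At 10 µM the same differences are given as values. Fenbuconazole minus imazalil had a median of -0.15 over the 10 genes, with 9 of them below 0, from -0.31 for DUSP4 to 0.20 for ETV4. Fenbuconazole minus 2,4-D had a median of -0.23, with 10 below 0, from -0.39 for SPRY4 to -0.04 for ETV4. Imazalil minus 2,4-D had a median of -0.04, with 9 below 0, and its largest values were SPRY4 at -0.30, ETV4 at -0.24 and ETV5 at -0.21. No member passed the threshold in these 3 contrasts (limma, in order 0.00183%, 0.00549% and 0.00183% of all probe sets). In the same order, 4, 8 and 3 of 28 probe sets were at an unadjusted p under 0.05. Over all 54613 probe sets there were 2865, 2738 and 2483.

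The arrays at each concentration carry replicate numbers 1 to 3, and 2 genes, SPRY4 and DUSP5, differed between these numbers, with the lowest mean in replicate 2. In the fenbuconazole set SPRY4 had a mean of 5.64 ± 0.22 in replicate 1, 5.36 ± 0.11 in replicate 2 and 5.67 ± 0.22 in replicate 3 (SD over 10 arrays each). The arrays of replicate 2 ran from 5.18 to 5.48 with a median of 5.38, and those of replicate 3 from 5.35 to 6.11 with a median of 5.65, so the ranges overlapped. With the concentrations accounted for, replicate 3 was 0.31 (SE 0.07) above replicate 2, and the F test over the 3 numbers passed (limma, adjusted p = 0.0329). Without replicates 1, 2 and 3 in turn it did not (adjusted p = 0.0690, 0.968 and 0.127).

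In the 2,4-D set the separation of SPRY4 was clearer. Replicate 2 had a median of 6.26 and reached at most 6.40, replicate 1 from 6.30 to 6.69 with a median of 6.47, and replicate 3 from 6.50 to 6.81 with a median of 6.65. No array of replicate 2 reached the lowest of replicate 3, and replicate 3 was 0.41 (SE 0.05) above replicate 2 (limma F over the numbers, adjusted p = 4.50e-05). The test passed without replicate 1 but neither without replicate 2 nor without replicate 3 (adjusted p = 0.0876 and 0.0509). In the imazalil set the order was the same, with means of 6.46, 6.39 and 6.64, but the F test did not pass (limma, adjusted p = 0.0573), although replicate 3 was 0.25 (SE 0.06) above replicate 2. The dimmer probe set of SPRY4, at a mean of 2.62 to 2.69 in the fenbuconazole set, did not pass in any set (adjusted p = 0.902, 0.272 and 0.357 for fenbuconazole, imazalil and 2,4-D).

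DUSP5 showed smaller steps. In the imazalil set its means were 8.53 ± 0.07, 8.36 ± 0.09 and 8.51 ± 0.05 in replicates 1, 2 and 3 (SD over 10 arrays each), and in the 2,4-D set 8.78 ± 0.08, 8.63 ± 0.09 and 8.73 ± 0.05. Replicate 2 was 0.16 below replicate 1 in both sets, where the F test passed (limma, adjusted p = 0.0458 and adjusted p = 0.0462), and 0.06 below it in the fenbuconazole set, where it did not (adjusted p = 0.238). With 1 replicate number left out, DUSP5 passed in no set (adjusted p from 0.0639 to 0.923 in the imazalil and 2,4-D sets). Over all probe sets 0.837% passed in the fenbuconazole set, 2.13% in the imazalil set and 3.63% in the 2,4-D set. Of the 28 member probe sets, 1, 1 and 2 passed, too few to set the list apart from those shares. The imazalil and 2,4-D sets share their 3 DMSO arrays. Over the 27 treated arrays alone, DUSP5 passed in neither set (limma, adjusted p = 0.0835 and 0.0940), while SPRY4 passed in the fenbuconazole and 2,4-D sets (adjusted p = 0.0400 and 0.000395).

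**Figure D3:**
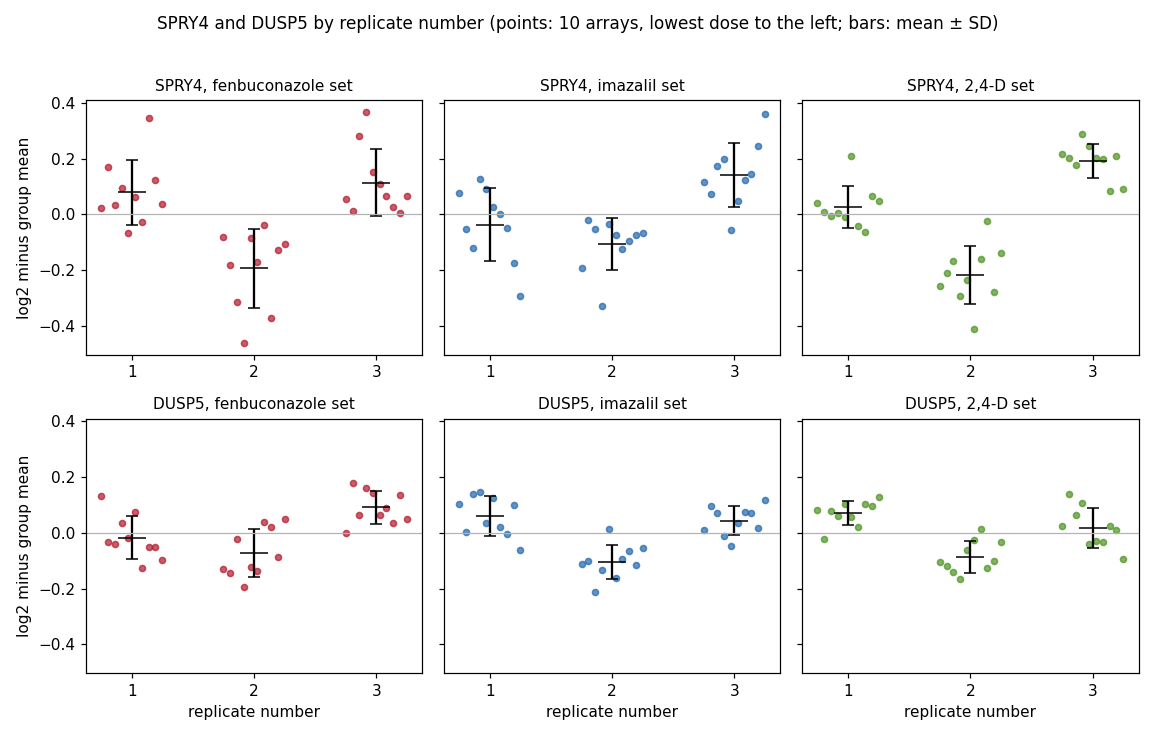
Log2 level of SPRY4 and DUSP5 as the difference from the mean of the array's own group (vertical axis) by replicate number (horizontal axis) in the 3 sets. Points are the 10 arrays of a number, ordered from DMSO to 10 µM within it, and bars are mean ± SD. The replicate 2 arrays of SPRY4 in the 2,4-D set lie below 0, all under those of replicate 3.

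The labels carry a running number for each sample that falls into 1 unbroken range per replicate number, and within a chemical it falls as the concentration rises. The place of an array in that order and its concentration therefore cannot be told apart. The other 8 genes had no representative past the threshold for replicate number in any set. ETV5 in the imazalil set came nearest (limma, adjusted p = 0.0644).

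From array to array, part of the list moved together. After the mean of each set and replicate number had been removed, SPRED1 and DUSP6 correlated at 0.66, SPRY2 and SPRED1 at 0.61, SPRY2 and PHLDA1 at 0.60, DUSP6 and SPRED2 at 0.54, and SPRY2 and DUSP6 at 0.53 over the 90 columns. These columns share cell line, normalization within a set and, for the DMSO columns of 2 sets, arrays, so the values are a description. Over the 72 columns at 0.001 to 3 µM the same pairs stood at 0.66, 0.52, 0.51, 0.57 and 0.46. ETV5 went with SPRY4 (0.47) and SPRY2 (0.40), and with those at 0.34 and 0.21 without 10 µM and DMSO. ETV4, DUSP4 and DUSP5 had values between -0.17 and 0.25 with every other member over the 90 columns.

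**Figure D4:**
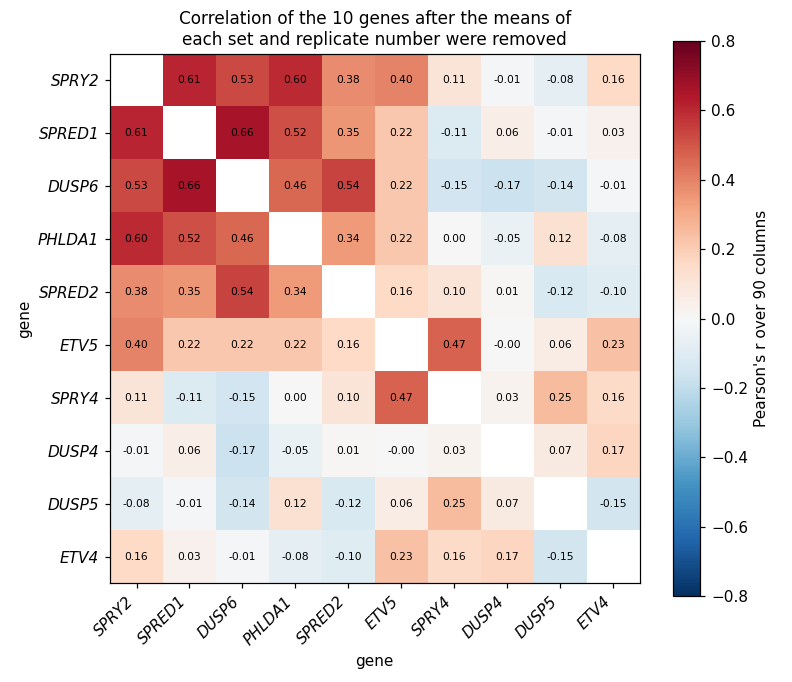
Pearson correlation between each pair of the 10 genes over 90 columns, after the means of each set and replicate number were removed (both axes list the genes, colour and number give r). SPRY2, SPRED1, DUSP6, PHLDA1 and SPRED2 form a square of values from 0.34 to 0.66, and ETV4, DUSP4 and DUSP5 lie between -0.17 and 0.25 with all others.

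The array's control probe sets for both ends of the ACTB transcript moved with some members. The 3' minus 5' difference of ACTB grows as RNA is degraded or copied short. Over the 90 columns, treated the same way, it correlated with the mean of the 10 genes at 0.28. Among the genes that moved together, the value was 0.50 for PHLDA1, 0.33 for SPRED1 and SPRED2, 0.32 for DUSP6 and 0.29 for SPRY2. The remaining members stood at 0.15 (DUSP5), 0.01 (ETV5), -0.05 (DUSP4), -0.06 (SPRY4) and -0.46 (ETV4). For GAPDH the value with the mean of the 10 genes was 0.17. At 10 µM the ACTB difference was 0.34 ± 0.03 with fenbuconazole, 0.48 ± 0.06 with imazalil and 0.47 ± 0.05 with 2,4-D (SD, n = 3). These lay inside the ranges of the 18 low-concentration arrays of each set (0.22 to 0.87, 0.38 to 0.60 and 0.43 to 0.69). The part of the ACTB difference in the levels of the 10 genes, or in their correlations with each other, was not tested.

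The genes whose pattern came closest to the mean of the 10 members, of 19764 others, were TRDN (r = 0.71), RECQL (0.69), TUBE1 (0.68), MTHFD2 (0.68) and EMP1 (0.68), over the same 90 columns. The most opposite were PFKM (-0.68), ARL6IP5 (-0.63) and SQOR (-0.61). These were chosen by the correlation itself, which is therefore only a description.

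Other parts of the pathway were given by lists. Of 18 further genes that ERK is known to induce, 14 were lower at 10 µM fenbuconazole than at low concentrations, with a median of -0.11, and 12 at 10 µM imazalil, with a median of -0.08. Over all probe sets the medians of these contrasts were 2.8e-05 and -0.003. The list counts are by genes, and the share of lower means over all genes is not given here. Nothing is therefore read from these counts. EGR1, an immediate early transcription factor, differed by -0.73 (SE 0.10) and -0.43 (SE 0.08), and FOSL1, a subunit of AP-1, by -0.28 with fenbuconazole. EGR1 was the only one of the 18 past the threshold with either fungicide (limma, 0.00506% and 0.0152% of all genes by their representatives), and with 2,4-D it differed by -0.04. The lists, too, were drawn up with these results in view.

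Of the cascade itself, 12 of 18 listed genes had a probe set named here, and none passed at 10 µM of any chemical. Their medians were -0.004, 0.03 and -0.01 with fenbuconazole, imazalil and 2,4-D. SOS2, an exchange factor that loads RAS, differed by -0.36 (SE 0.11) and the adaptor GAB1 by -0.30 (SE 0.14) with fenbuconazole. Of 18 other brakes, 9 were lower and 9 higher with fenbuconazole and none passed. SPRED3 differed by -0.28 (SE 0.11) and SPRY1 by 0.25 (SE 0.12), so these relatives of the members lay on opposite sides. Of 25 receptors and ligands, none passed, and the median was 0.05 with fenbuconazole. FGF2, a fibroblast growth factor, differed by -0.41 (SE 0.12) and TGFA, a ligand of the EGF receptor, by 0.33 (SE 0.10).

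Between replicate numbers, 1 of the 25 receptors and ligands passed in the fenbuconazole set, 4 in the imazalil set and 3 in the 2,4-D set. FGFR3, a fibroblast growth factor receptor, passed in each set and was lower in replicate 2 than in replicate 1 by 0.57 in the fenbuconazole set, 0.83 in the imazalil set and 0.63 in the 2,4-D set (limma F over the numbers, adjusted p = 1.28e-06, 1.33e-10 and 1.01e-08). PDGFC, a platelet-derived growth factor, went the other way, with replicate 2 higher by 0.14 and 0.12 in the imazalil and 2,4-D sets (adjusted p = 0.0166 and 0.00826). Among the other brakes, DUSP1, a phosphatase induced by growth factors and stress, was lower in replicate 2 by 0.26 and 0.32 in these sets (adjusted p = 0.0134 and 7.80e-05), and ERRFI1, an inhibitor of the EGF receptor, by 0.15 in the 2,4-D set (adjusted p = 0.00434). The immediate early genes FOS and IER2 were lower in replicate 2 too, FOS by 0.29 and 0.27 and IER2 by 0.21 and 0.16 in the imazalil and 2,4-D sets (limma, adjusted p from 0.000464 to 0.00686). Of the other brakes 0, 1 and 3 of 18 passed, of the other induced genes 0, 5 and 3 of 18, and of the cascade 0 of 12 in each set, beside 1.27%, 3.11% and 5.17% of all genes by their representatives (fenbuconazole, imazalil and 2,4-D). At an unadjusted p under 0.05 there were 1, 2 and 2 genes of the cascade by their representatives. Over all 54613 probe sets, a different unit that gives no matched share, there were 6253, 9142 and 10349. The nearest genes of the cascade were GAB1 in the imazalil set (limma, adjusted p = 0.157) and the adaptor SHC1 in the 2,4-D set (adjusted p = 0.137).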

How the data were processed

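RNA of A673 cells was measured on 1-colour arrays (Affymetrix HT HG-U133+ PM). The authors normalized the intensities by RMA in Partek and deposited log2 values, each chemical's 27 treated and 3 DMSO columns as a set. Versions of these tools are not given in the sources used here, and the number of arrays limits the precision. Of 54715 rows, 102 control probe sets were left out of tests. Genes were named through GEO's platform annotation. Of the 54613 probe sets tested, 40914 had 1 symbol, 864 had several and 12835 had none.

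Each set of 30 columns was fitted with limma 3.58.1 (R 4.3.3), with 1 mean per concentration or, for replicate numbers, concentration plus number. Chemicals were compared over the treated arrays of the 3 sets in 1 fit. P-values were adjusted by Benjamini-Hochberg over all probe sets in each contrast, with a threshold of 0.05. Scripts were tested on simulated data. Of true changes of 0.3 log2 units at 1 µM against DMSO, 0%, 5.97% and 5.97% were recovered (fenbuconazole, imazalil and 2,4-D). At 0.6 it was 65.7%, 76.1% and 71.6%. For 10 µM against the low concentrations, 8.96%, 17.9% and 25.4% of changes of 0.3 were recovered. In these contrasts a count of 0 past the threshold therefore says little about changes of that size. All 10 members were described. From each other pathway list, the 2 genes with the largest change at 10 µM of either fungicide were named and up to 2 with the smallest p for replicate number, besides the 5 genes most like the mean of the members and the 3 most opposite. The members and lists were chosen with earlier results of these data known. The alternatives tried were a replicate block, DMSO or the other 8 concentrations as reference, equal array medians, a second quantile normalization, a filter on dim probe sets, only the representative of each gene, a mean trend with robust priors in eBayes, treated arrays only, and each replicate left out. Promoter sequences and gene bounds were taken from RefSeq tables for GRCh38.p14, with 5 of the 10 members matched at their annotated start. The promoter of DUSP4 was not looked up.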

Additional observations from a re-analysis of the deposited data

How the results depend on the processing

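Before any alternative was tried, the only member results reported past the threshold were F tests over replicate numbers. Such a test has no direction, so only whether it passed was followed. With DMSO as the reference, the median difference of the 10 genes at 10 µM fenbuconazole was -0.20 instead of -0.28, and at 10 µM imazalil -0.06 instead of -0.12. When a replicate number or a 10 µM array was left out it ran from -0.33 to -0.26 with fenbuconazole, from -0.18 to -0.03 with imazalil and from -0.11 to -0.04 with 2,4-D. At 10 µM, 9 of 10 genes with fenbuconazole, 6 with imazalil and 5 with 2,4-D kept their sign in all 14 alternatives. Of these, the replicate block, the filter on dim probe sets, 1 probe set per gene and trend with robust priors cannot change a difference. The sign was therefore fixed in advance in those, and only the remaining alternatives could have turned it. The count of member probe sets that passed for replicate number in the imazalil set, 1 otherwise, was 3 with dim probe sets left out, 3 with 1 probe set per gene, 3 with trend and robust, and 0 with the 27 treated arrays only. In the 2,4-D set, 2 otherwise, it was 1 after a second quantile normalization, 4 with trend and robust, and 1 with treated arrays only. With a replicate left out it was 0 without any of the 3 in the fenbuconazole set, where SPRY4 had adjusted p = 0.0690, 0.968 and 0.127 without replicates 1, 2 and 3, and 0 to 1 in the imazalil and 2,4-D sets. The cause of these changes was not tested. Of the 5 genes most like the members, 3 stayed in the first 5 when only set means were removed.

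The sources do not tie the replicate numbers to batches of cells, and the numbers were not used to pair the arrays. The mean correlation of same-numbered deviations was 0.042, 0.0689 and 0.0781 in the fenbuconazole, imazalil and 2,4-D sets, with 98, 89 and 83 of 135 pairs at or below 0.1, while 0.837%, 2.13% and 3.63% of all probe sets passed the F test over the numbers. With a replicate block, 1 member probe set passed at 10 µM imazalil instead of 0, against the low concentrations (0.0256% of all probe sets) and against the other 8 (0.0201%). That is a description, as the members were chosen with 10 µM results known. In the other contrasts between concentrations run with the block within a set, 0 of 28 passed with it and without it. The 3 arrays a concentration limit what could be detected.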
